A study of Mus musculus with 12 samples.

Results

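Chemokines are small secreted or membrane-tethered proteins that direct leukocytes, and 10 of their genes are described here in hearts under pressure overload: Cxcl13, Cxcl14, Cxcl12, Cxcl16, Cx3cl1, Ccl24, Ccl2, Ccl7, Ccl8 and Ccl5. The genes were chosen by symbol, as the rows of the count table whose Ensembl identifiers carry these mouse symbols, and they make up 10 of the 55357 identifiers in the table. All 10 passed the filter on low counts that left 15804 tested genes. Gene expression was measured by mRNA sequencing of 12 hearts from male mice operated on at 8 weeks of age, 3 in each of 4 groups. The groups were Cd163-/- mice (KO) after transverse aortic constriction (TAC), wild-type mice (WT) after TAC, KO mice after sham surgery and WT mice after sham surgery. All were on or of the C57BL/6J background. In TAC the aorta is tied against a needle, here of 27 gauge, which narrows it and overloads the left ventricle, and the sham operation leaves it untied. Cd163 encodes a scavenger receptor of tissue macrophages for haemoglobin bound to haptoglobin, and the labels do not name a cell type in which the deletion is restricted. The labels list each library as its own sample without naming the animal, so a p-value reflects only how far these samples spread. How long after surgery the hearts were taken is not stated in the sources used here.

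Chemokines act through G protein-coupled receptors on leukocytes, and the spacing of their first cysteines sorts them into CC, CXC and CX3C families. In the heart, CCL2 and CCL7 draw monocytes that carry CCR2, CXCL12 is made by stromal and vascular cells and is read by CXCR4 and ACKR3, and CXCL13 draws B cells that carry CXCR5. CXCL16 and CX3CL1 are made as membrane proteins that the proteases ADAM10 and ADAM17 release. CCL24 is an eotaxin that attracts eosinophils through CCR3, CCL5 is read by CCR1 and CCR3 among others, and mouse CCL8 acts mainly through CCR8. CXCL14 is a homeostatic chemokine of epithelium and stroma.

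The RefSeq promoter table, on build GRCm38.p6, held a window of 300 bases around the start site for 5 of the 10 genes, namely Cxcl13, Cxcl14, Cxcl12, Cx3cl1 and Ccl8. The windows of Cxcl13, Ccl8 and Cxcl14 are shown because the libraries of these genes did not overlap between KO TAC and WT TAC hearts. The Cxcl13 window lies at chr5:95956689-95956988 on the plus strand, that of Ccl8 at chr11:82114935-82115234 on the plus strand, and that of Cxcl14 at chr13:56296502-56296801 on the minus strand. Each runs 5′ to 3′ along its gene. Capitals mark a TATA box (TATAAA) in Cxcl13 and Ccl8 and a match to an interferon-stimulated response element in Cxcl14.
Cxcl13: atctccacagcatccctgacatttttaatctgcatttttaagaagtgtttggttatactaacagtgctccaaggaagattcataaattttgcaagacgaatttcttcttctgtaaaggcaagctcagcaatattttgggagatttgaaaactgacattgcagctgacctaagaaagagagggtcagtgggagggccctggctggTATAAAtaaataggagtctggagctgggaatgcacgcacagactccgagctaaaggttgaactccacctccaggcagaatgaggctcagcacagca
Ccl8: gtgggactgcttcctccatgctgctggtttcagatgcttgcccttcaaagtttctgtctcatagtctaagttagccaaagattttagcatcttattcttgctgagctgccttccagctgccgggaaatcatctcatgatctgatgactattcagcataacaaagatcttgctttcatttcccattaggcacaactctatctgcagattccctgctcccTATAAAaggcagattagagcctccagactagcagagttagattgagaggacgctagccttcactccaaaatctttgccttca
Cxcl14: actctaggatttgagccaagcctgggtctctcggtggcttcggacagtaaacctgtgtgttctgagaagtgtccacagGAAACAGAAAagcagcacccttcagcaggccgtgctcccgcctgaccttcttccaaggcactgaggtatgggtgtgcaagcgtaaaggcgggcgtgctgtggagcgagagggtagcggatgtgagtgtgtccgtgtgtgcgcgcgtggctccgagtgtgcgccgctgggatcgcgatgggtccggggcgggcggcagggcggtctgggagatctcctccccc

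Both strands of the windows were searched for TATAAA, the interferon-stimulated response element, the AP-1 motif TGANTCA and the NF-kB consensus. TATAAA began 46 bases before the annotated start in Cxcl13 and 32 bases before it in Ccl8, and at 6 bases before it in Cx3cl1. Of all 32851 RefSeq windows, 13.6% held TATAAA. The match to the interferon-stimulated response element in Cxcl14, 172 bases before the start, is of a motif found in 3.44% of windows. TGANTCA, found in 7.81% of all windows, and the NF-kB consensus, found in 8.46%, matched in none of the 5, and no motif matched in Cxcl12. These matches describe letters in a window and no binding was measured.

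Libraries held 14150109 to 16913259 counts in KO TAC, 16671952 to 18608925 in WT TAC, 15804176 to 22602225 in KO sham and 19987174 to 22400473 in WT sham hearts. Of the libraries, 2 stood apart from their groups. KO sham replicate 1 had rank correlations over genes of 0.985 to 0.990 with the KO TAC libraries, against 0.927 and 0.935 with the other KO sham libraries. WT TAC replicate 1 correlated with it at 0.965, above the other 2 WT TAC libraries. Counts from the mitochondrial genome made up 44.0 to 51.3% in KO TAC hearts, 51.0% in that KO sham library and between 24.8 and 36.9% in the remaining 8. Raw Cd163 counts were 59, 47 and 53 in KO TAC, 592, 255 and 541 in WT TAC, 46, 112 and 96 in KO sham and 304, 344 and 282 in WT sham libraries. Every KO library lay below every WT library, as the labels say, with transcripts still counted. Where leaving out KO sham replicate 1 changed a call of the 10 genes, the values with and without it are both given, and for the lists of other chemokines, receptors and proteases the counts of calls without it are given.

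Levels are CPM, the read count of a gene relative to its library's size, after edgeR's TMM correction of that size for composition. To compare levels between genes they were divided by exon length, as CPM per kb. In WT sham hearts Cxcl12 led at 34.0 CPM per kb and Cxcl14 followed at 7.14, above the other 8 genes in every WT sham library. Cxcl16 averaged 2.61 CPM per kb and Cx3cl1 2.36, and their ranges of 2.49 to 2.70 and 2.03 to 2.62 overlapped. Ccl2 at 1.59, Ccl7 at 1.57 and Ccl24 at 1.25 CPM per kb overlapped as well. Ccl8 averaged 0.819 CPM per kb, and its range of 0.533 to 1.24 overlapped those 3. Ccl5 at 0.154 and Cxcl13 at 0.112 CPM per kb were lowest, with overlapping ranges. In KO TAC hearts Cxcl12 still led at 18.1 CPM per kb, Ccl8 stood at 4.92 next to Cxcl16 at 4.80, Cxcl14 at 3.79, and Cxcl13 at 1.65 above Ccl5 at 0.641.

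**Figure D1:**
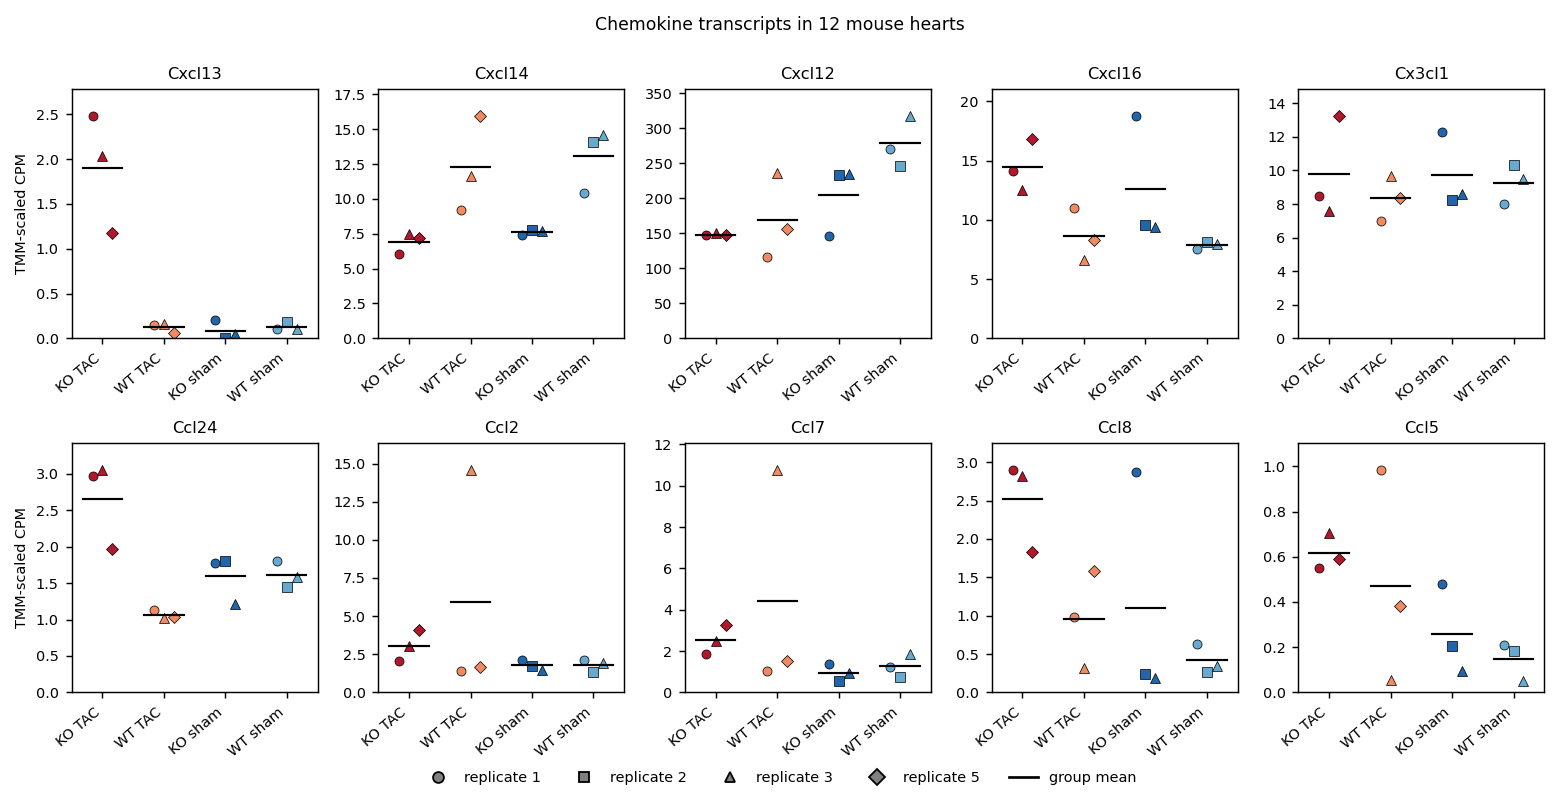
Level of each of the 10 chemokine genes in TMM-scaled CPM (linear axes from 0) for the 12 hearts, with points for libraries, shapes for replicate numbers and bars for the mean of 3 libraries. Cxcl13 is at 1.18 to 2.48 CPM in KO TAC hearts and at or below 0.205 CPM elsewhere, the 6 KO libraries lie below the 6 WT libraries for Cxcl14, and WT TAC replicate 3 holds the highest Ccl2 and Ccl7 points.

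Between KO and WT hearts after TAC, Cxcl13 and Ccl24 rose and Cxcl14 fell. Cxcl13, the B-cell attractant, was 14.8-fold higher, Ccl24, the eotaxin, was 2.49-fold higher, and Cxcl14 was 1.77-fold lower. These were 3 calls among the 10 genes, 2 higher and 1 lower. Of all tested genes 20.4% were called in this comparison, 8.63% higher and 11.7% lower. With libraries scaled by their totals in place of TMM, the split over all genes was 515 higher and 3010 lower, against 1364 higher and 1855 lower with TMM. At an unadjusted p under 0.05 there were 4 of the 10 genes, against 40.8% of all tested genes. Libraries did not overlap and were higher in KO TAC for 4 of the 10 genes, Cxcl13, Ccl24, Ccl8 and Cxcl16, against 22.7% of all genes. They did not overlap and were lower for 1, Cxcl14, against 24.3% of all genes. The median log2 fold change of the 10 genes was 0.29, beside −0.02 over all tested genes.

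Cxcl13 (ENSMUSG00000023078, chromosome 5) was measured at 2.48, 2.03 and 1.18 CPM in KO TAC hearts, at 0.147, 0.161 and 0.0544 CPM in WT TAC hearts, at 0.205, 0 and 0.0469 CPM in KO sham hearts and at 0.106, 0.182 and 0.0994 CPM in WT sham hearts. Each KO TAC library stood above all 9 other libraries, KO sham replicate 1 among them, and the other 3 groups overlapped. As raw counts the KO TAC libraries held 36, 26 and 18 reads, and no other library held more than 4. Summed over the 3 libraries there were 80 counts in KO TAC (95% exact Poisson interval 63.4 to 99.6), 7 in WT TAC (2.81 to 14.4), 4 in KO sham (1.09 to 10.2) and 8 in WT sham hearts (3.45 to 15.8). The interval covers counting error only.

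For Cxcl13 in KO against WT hearts after TAC, the log2 fold change was 3.89 ± 0.63 (SE) with an edgeR adjusted p of 0.0116. The call was lost without WT TAC replicate 3 (log2 fold change 4.11, edgeR adjusted p = 0.0517), without KO TAC replicate 1 (3.64, 0.0585) and without KO TAC replicate 3 (3.84, 0.0583). Over all genes the same 3 omissions gave 85, 58 and 43 calls, against 3219 with all libraries. Within KO hearts, TAC against sham gave 4.65 ± 0.69 for Cxcl13, a fitted 25.1-fold difference that did not pass (edgeR adjusted p = 0.103). No gene at all was called in that comparison, a background of 0%. Without KO sham replicate 1 the Cxcl13 value was 6.05 ± 0.75 with an edgeR adjusted p of 0.000148, in a fit that called 47.6% of all genes. In WT hearts TAC against sham gave −0.09 ± 0.81 for Cxcl13 (edgeR adjusted p = 0.960). The difference between the TAC effects, KO minus WT, was 4.74 ± 1.13 (edgeR adjusted p = 0.300), and 6.14 ± 1.16 without KO sham replicate 1 (edgeR adjusted p = 0.00893), where 12.1% of all genes were called. The 2 comparisons that involve KO TAC hearts share those libraries.

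Ccl24 (ENSMUSG00000004814, chromosome 5) was measured at 2.97, 3.05 and 1.97 CPM in KO TAC hearts, at 1.13, 1.02 and 1.03 CPM in WT TAC hearts, at 1.77, 1.81 and 1.22 CPM in KO sham hearts and at 1.80, 1.45 and 1.59 CPM in WT sham hearts. All KO TAC libraries lay above, and all WT TAC libraries below, the 6 sham libraries, and KO sham overlapped WT sham. The lowest KO TAC library, at 1.97 CPM, held 30 reads, and the highest sham library, at 1.81 CPM, held 44. In KO against WT hearts after TAC the log2 fold change was 1.32 ± 0.27 (edgeR adjusted p = 0.0187). That call was lost without WT TAC replicate 3 (edgeR adjusted p = 0.0691), WT TAC replicate 5 (0.0612), KO TAC replicate 1 (0.0673) or KO TAC replicate 3 (0.0805). TAC against sham gave 0.73 ± 0.26 in KO hearts (edgeR adjusted p = 0.112) and −0.60 ± 0.27 in WT hearts (edgeR adjusted p = 0.302). The difference between these, KO minus WT, was 1.33 ± 0.38 (edgeR adjusted p = 0.409). Without KO sham replicate 1, TAC against sham in KO hearts gave 0.80 ± 0.29 for Ccl24 (edgeR adjusted p = 0.0377) and the difference of TAC effects 1.39 ± 0.40 (edgeR adjusted p = 0.0398).

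Ccl8 (ENSMUSG00000009185, chromosome 11), a CC chemokine that in mice attracts T cells with CCR8, was measured at 2.90, 2.82 and 1.84 CPM in KO TAC hearts, at 0.983, 0.323 and 1.58 CPM in WT TAC hearts, at 2.87, 0.247 and 0.187 CPM in KO sham hearts and at 0.635, 0.272 and 0.348 CPM in WT sham hearts. KO TAC lay above WT TAC in every library, while 1 of 3 KO sham hearts, replicate 1, lay within the KO TAC range with 42 raw counts against 6 and 4 in the other 2. In KO against WT hearts after TAC the mean was 2.52 ± 0.591 CPM in KO and 0.962 ± 0.629 CPM in WT (SD, n = 3 each), a log2 fold change of 1.38 ± 0.82 that did not pass (edgeR adjusted p = 0.221). With KO sham replicate 1 left out, the same comparison gave 1.38 ± 0.44 (edgeR adjusted p = 0.0255), where 40.7% of all genes were called. For TAC in KO hearts the value was 1.29 ± 0.83 for Ccl8 with all libraries (edgeR adjusted p = 0.291) and 3.48 ± 0.61 without KO sham replicate 1 (edgeR adjusted p = 0.000964).

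**Figure D2:**
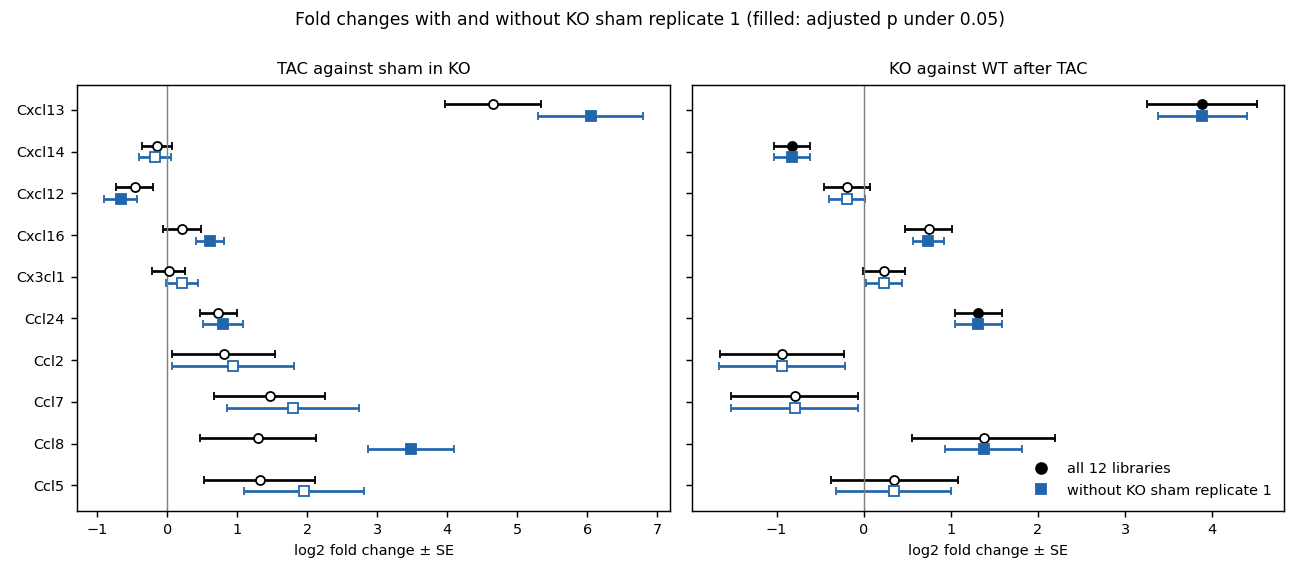
Log2 fold change with SE bars of each chemokine gene for TAC against sham in KO hearts and for KO against WT hearts after TAC, with all 12 libraries (black circles) and without KO sham replicate 1 (blue squares), filled where the edgeR adjusted p was under 0.05. Without that library 5 genes were filled in each panel, where 47.6% (TAC in KO) and 40.7% (KO against WT after TAC) of all genes were called. Ccl8 in KO hearts was at 3.48 without that library and at 1.29 with it.

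Cxcl16 (ENSMUSG00000018920, chromosome 11), a tethered chemokine and scavenger receptor for oxidised lipids, was measured at 14.1, 12.5 and 16.8 CPM in KO TAC hearts, at 11.01, 6.61 and 8.33 CPM in WT TAC hearts, at 18.8, 9.57 and 9.42 CPM in KO sham hearts and at 7.52, 8.17 and 7.95 CPM in WT sham hearts. KO libraries lay above WT libraries within both surgeries, and KO sham replicate 1 was the highest of the 12. The log2 fold change of KO against WT was 0.74 ± 0.27 after TAC (edgeR adjusted p = 0.0658) and 0.67 ± 0.27 after sham (edgeR adjusted p = 0.335). Without KO sham replicate 1 the value for Cxcl16 after sham was 0.27 ± 0.20 (edgeR adjusted p = 0.754), in a fit that called 0.241% of all genes. Without KO sham replicate 1, the TAC value for Cxcl16 had an edgeR adjusted p of 0.00642, and TAC against sham in KO hearts was 0.61 ± 0.20 (edgeR adjusted p = 0.0253). Cxcl16 overlaps Zmynd15 on the opposite strand, and the sources used here do not say whether counting used strand, so reads of the 2 genes may not be separated.

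Cx3cl1 (ENSMUSG00000031778, chromosome 8), fractalkine, the other tethered chemokine, was measured at 8.48, 7.59 and 13.2 CPM in KO TAC hearts, at 6.98, 9.68 and 8.39 CPM in WT TAC hearts, at 12.3, 8.26 and 8.57 CPM in KO sham hearts and at 7.99, 10.3 and 9.50 CPM in WT sham hearts. The 4 groups overlapped, with log2 fold changes between −0.15 and 0.23 in the 4 comparisons of groups. The smallest edgeR adjusted p of these was 0.482, which does not show that the levels were equal.

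Cxcl14 (ENSMUSG00000021508, chromosome 13) was measured at 6.07, 7.51 and 7.21 CPM in KO TAC hearts, at 9.19, 11.7 and 15.95 CPM in WT TAC hearts, at 7.44, 7.81 and 7.73 CPM in KO sham hearts and at 10.4, 14.1 and 14.6 CPM in WT sham hearts. All 6 KO libraries lay below all 6 WT libraries, and KO sham replicate 1 lay slightly below the other 2 KO sham libraries, within the KO TAC range. KO against WT gave a log2 fold change of −0.82 ± 0.21 after TAC (edgeR adjusted p = 0.0267). The TAC call was lost without WT TAC replicate 3 (edgeR adjusted p = 0.0788), WT TAC replicate 5 (0.0938), KO TAC replicate 1 (0.0888), KO TAC replicate 3 (0.0918) or KO TAC replicate 5 (0.0702). After sham the log2 fold change was −0.77 ± 0.21, a 1.70-fold lower fitted level, and was not called (edgeR adjusted p = 0.243). It was called by limma-voom (adjusted p = 0.0142) and missed in DESeq2 (adjusted p = 0.0504).

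KO against WT after sham had 0 calls among the 10 genes, against 0.00633% of all tested genes. At an unadjusted p under 0.05 there were 2 of the 10, Cxcl14 and Cxcl16, against 13.5% of all genes. Libraries did not overlap and were higher in KO sham for 1 gene, Cxcl16, against 12.2% of all genes, and lower for 2, Cxcl14 and Cxcl12, against 10.4%. DESeq2 called 0 of the 10, against 1.31% of all genes, and limma-voom 1, against 14.9%. The median log2 fold change of the 10 genes was −0.03, beside 0.01 over all tested genes.

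Cxcl12 (ENSMUSG00000061353, chromosome 6) was measured at 147, 150 and 148 CPM in KO TAC hearts, at 116, 235 and 156 CPM in WT TAC hearts, at 145, 234 and 235 CPM in KO sham hearts and at 270, 247 and 317 CPM in WT sham hearts. The WT sham libraries were the 3 highest, and KO sham replicate 1 lay at the KO TAC level. In WT hearts TAC against sham gave a log2 fold change of −0.72 ± 0.26 with no overlap (edgeR adjusted p = 0.229). It passed in limma-voom (adjusted p = 0.0460). In KO hearts TAC against sham gave −0.47 ± 0.26 (edgeR adjusted p = 0.232), and −0.67 ± 0.23 without KO sham replicate 1 (edgeR adjusted p = 0.0303).

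Ccl2 (ENSMUSG00000035385, chromosome 11) and Ccl7 (ENSMUSG00000035373, chromosome 11), neighbours that both attract CCR2-bearing monocytes, were high in 1 WT TAC heart. Ccl2 was measured at 2.07, 3.05 and 4.06 CPM in KO TAC hearts, at 1.43, 14.6 and 1.69 CPM in WT TAC hearts, at 2.12, 1.73 and 1.45 CPM in KO sham hearts and at 2.12, 1.36 and 1.94 CPM in WT sham hearts. Ccl7 was measured at 1.86, 2.50 and 3.28 CPM in KO TAC hearts, at 1.03, 10.8 and 1.52 CPM in WT TAC hearts, at 1.36, 0.534 and 0.937 CPM in KO sham hearts and at 1.22, 0.726 and 1.84 CPM in WT sham hearts. WT TAC replicate 3 was the highest library for both, while the other 2 WT TAC hearts lay inside the sham range. Ccl7 was higher in every KO TAC library than in every sham library, and KO TAC overlapped KO sham for Ccl2 (2.07 against up to 2.12 CPM).

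TAC against sham in WT hearts gave a log2 fold change of 1.70 ± 0.72 for Ccl2 (edgeR adjusted p = 0.281) and 1.81 ± 0.75 for Ccl7 (edgeR adjusted p = 0.273). Without WT TAC replicate 3 the values were −0.22 for Ccl2 (edgeR adjusted p = 0.740) and 0.02 for Ccl7 (edgeR adjusted p = 0.986). In KO hearts TAC against sham gave 0.80 ± 0.74 for Ccl2 and 1.47 ± 0.79 for Ccl7, neither called. Ccl2 overlaps Gm17268 on the opposite strand. In RefSeq's order of coding genes on chromosome 11, Ccl7, Ccl11, Ccl12 and Ccl8 follow Ccl2 in that order, and Ccl5 lies 31 genes on.

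Ccl5 (ENSMUSG00000035042, chromosome 11), made by T cells, NK cells and platelets among others, was measured at 0.552, 0.704 and 0.590 CPM in KO TAC hearts, at 0.983, 0.0538 and 0.381 CPM in WT TAC hearts, at 0.478, 0.205 and 0.0937 CPM in KO sham hearts and at 0.212, 0.182 and 0.0497 CPM in WT sham hearts. KO TAC lay above KO sham in every library, and WT TAC ranged from near the lowest sham level to the highest level of the 12. The TAC effect was 1.32 ± 0.80 in KO hearts (edgeR adjusted p = 0.265) and 1.66 ± 0.84 in WT hearts (edgeR adjusted p = 0.346).

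TAC against sham in WT hearts had 0 calls among the 10 genes, against 0.0316% of all tested genes. At an unadjusted p under 0.05 there were 4 of the 10, Ccl2 and Ccl7 with higher and Cxcl12 and Ccl24 with lower fitted levels, against 16.2% of all genes. No gene of the 10 was higher without overlap, against 13.4% of all genes, and 2 were lower without overlap, Cxcl12 and Ccl24, against 13.7%. DESeq2 called 0, against 3.26% of all genes, and limma-voom 1, against 6.52%. TAC against sham in KO hearts had 2 of the 10 at an unadjusted p under 0.05, Cxcl13 and Ccl24, against 30.9% of all genes. There 4 of the 10 were higher without overlap, Cxcl13, Ccl24, Ccl7 and Ccl5, against 11.6% of all genes, and 0 were lower, against 10.8%. DESeq2 called 0 of the 10, with no adjusted p for Cxcl13, against 11.8% of all genes. limma-voom called 7, against 63.2% of all genes. The median log2 fold change of the 10 was 0.02 for TAC in WT hearts and 0.77 for TAC in KO hearts, beside 0.01 and −0.02 over all tested genes.

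For the difference between the TAC effects 0 of the 10 genes and 0% of all genes were called. At an unadjusted p under 0.05 there were 2 of the 10, Cxcl13 and Ccl24, against 9.19% of all genes. DESeq2 called 1, Cxcl13, against 0.595% of all genes, and limma-voom 3, against 32%. Without KO sham replicate 1 edgeR called 5 of the 10 for TAC against sham in KO hearts, against 47.6% of all genes. These were Cxcl13, Ccl8, Ccl24 and Cxcl16 higher and Cxcl12 lower. In the same fit edgeR called 5 for KO against WT after TAC, against 40.7% of all genes. These were Cxcl13, Ccl24, Cxcl16 and Ccl8 higher and Cxcl14 lower.

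**Figure D3:**
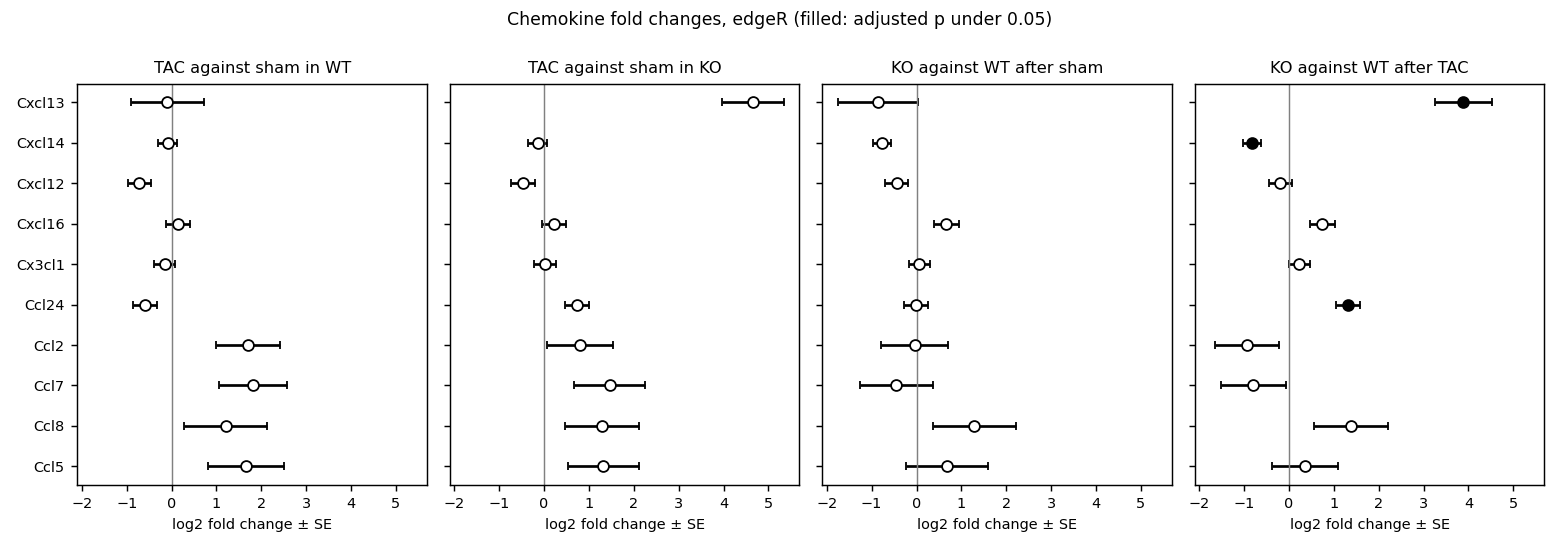
Log2 fold change with SE bars of the 10 chemokine genes in the 4 comparisons of groups with all 12 libraries, filled where the edgeR adjusted p was under 0.05. The filled points are Cxcl13 at 3.89, Ccl24 at 1.32 and Cxcl14 at −0.82, all for KO against WT after TAC.

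Among the receptors, Ccr2, the receptor of CCL2 and CCL7 on monocytes, fell in KO against WT hearts after TAC. It was measured at 1.59, 2.50 and 2.88 CPM in KO TAC hearts, at 4.92, 3.49 and 13.8 CPM in WT TAC hearts, at 3.14, 3.53 and 1.55 CPM in KO sham hearts and at 6.99, 5.08 and 4.08 CPM in WT sham hearts. KO libraries lay below WT libraries within each surgery. Of all genes 24.3% lay lower without overlap after TAC and 10.4% after sham. The highest WT TAC heart for Ccr2 was replicate 5, not replicate 3 in which Ccl2 and Ccl7 were highest. The log2 fold change after TAC was −1.67 ± 0.50 (edgeR adjusted p = 0.0400). Of all tested genes 20.4% were called in that comparison, 11.7% lower. Without WT TAC replicate 5 the value for Ccr2 was −0.86 (edgeR adjusted p = 0.169). The Ccr2 call was also lost without WT TAC replicate 3 (edgeR adjusted p = 0.0655), without any 1 of the KO TAC libraries (0.0821 to 0.121) or WT sham libraries (0.0535 to 0.0572), and without the low-count filter (0.0873).

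Cx3cr1, the receptor of CX3CL1, averaged 2.97 ± 2.16 CPM in KO TAC, 5.05 ± 1.26 in WT TAC, 7.42 ± 2.52 in KO sham and 5.36 ± 0.150 in WT sham hearts (SD, n = 3 each). In KO hearts TAC against sham gave −1.31 ± 0.42 for Cx3cr1 (edgeR adjusted p = 0.103), and −1.30 without KO sham replicate 1 (edgeR adjusted p = 0.0268). Its ligand Cx3cl1 overlapped between all 4 groups, as given above.

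Cxcr6, the receptor of CXCL16, was measured at 0.621, 0.626 and 0.590 CPM in KO TAC hearts, at 0.295, 1.18 and 0.599 CPM in WT TAC hearts, at 0.0682, 0.0411 and 0.141 CPM in KO sham hearts and at 0.371, 0.227 and 0.199 CPM in WT sham hearts. KO TAC lay above KO sham in every library, with replicate 1 of KO sham on the sham side, and KO TAC overlapped WT TAC. Of all genes 11.6% were higher without overlap for TAC in KO. TAC against sham in KO hearts gave 2.78 ± 0.66 for Cxcr6 (edgeR adjusted p = 0.103), and 2.70 without KO sham replicate 1 (edgeR adjusted p = 0.0109). The latter fit called 47.6% of all genes, and both values rest on few reads in KO sham hearts. Cxcr5, the receptor of CXCL13, was untested, with group sums of 17 counts in KO TAC, 7 in WT TAC, 9 in KO sham and 8 in WT sham hearts. It was at 0.345, 0.548 and 0.328 CPM in KO TAC hearts, at 0.147, 0.108 and 0.109 CPM in WT TAC hearts, and in KO sham replicate 1 at 0.478 CPM. Ccr3, the receptor of CCL24, had 0 counts over the KO TAC libraries and 1 over each of the other groups, at or under the floor of 3 counts per group, so no difference was detectable at this depth.

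**Figure D4:**
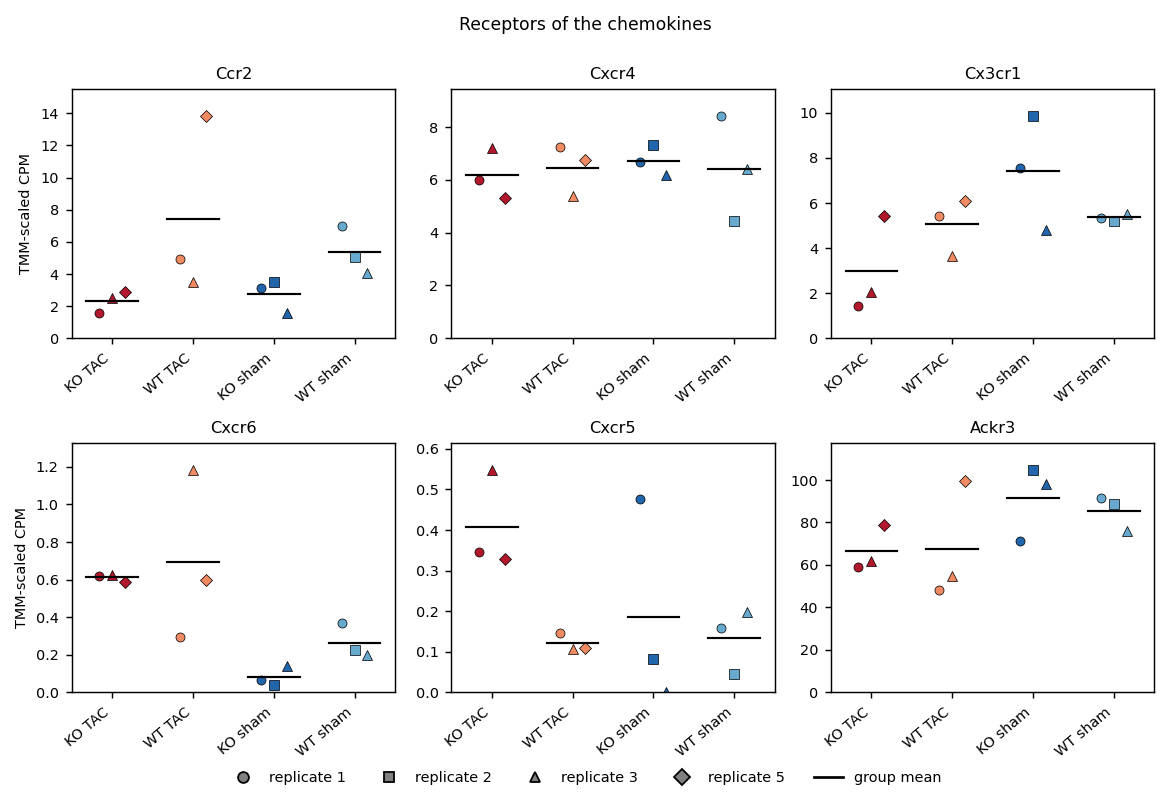
Level of 6 receptors in TMM-scaled CPM (linear axes from 0), with points for libraries and bars for the mean of 3. Ccr2 is at 1.59 to 2.88 CPM in KO TAC and 3.49 to 13.8 CPM in WT TAC hearts, and Cxcr6 at 0.590 to 0.626 CPM in KO TAC and 0.0411 to 0.141 CPM in KO sham hearts.

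Ackr3, the scavenging receptor of CXCL12, averaged 66.6 ± 10.8 CPM in KO TAC, 67.5 ± 27.7 in WT TAC, 91.3 ± 17.7 in KO sham and 85.3 ± 8.31 in WT sham hearts. Cxcr4, the signalling receptor of CXCL12, had group means of 6.17 CPM in KO TAC, 6.45 in WT TAC, 6.73 in KO sham and 6.43 in WT sham hearts. Of 22 chemokine receptors 11 were tested, and with all libraries Ccr2 was the only call in any of the 5 comparisons. It was 1 of 11 for KO against WT after TAC, where 20.4% of all tested genes were called. In each other comparison at most 0.0316% of all tested genes were called. When KO sham replicate 1 was left out, edgeR called 1 higher and 2 lower for TAC in KO, against 47.6% of all genes. It called 1 higher for TAC in WT, against 6.53%, and 2 lower for KO against WT after TAC, against 40.7%. Ccr2 was among those 2, and 0 were called in the other 2 comparisons. With all libraries 10 of 11 receptors were below 0 for KO against WT after TAC, against 8059 of all 15804 tested genes. The median log2 fold change of the receptors there was −0.75, beside −0.02 over all tested genes. For the receptors it was 0.28 for TAC in WT and −0.23 for TAC in KO. It was 0.07 for KO against WT after sham and −0.69 for the difference of TAC effects. Over all tested genes these 4 medians were 0.01, −0.02, 0.01 and −0.07 in that order. Where no receptor was called, the 2 with the smallest p were Ackr4 (1.53 ± 0.41, edgeR adjusted p = 0.157) and Cxcr6 (1.36 ± 0.53, edgeR adjusted p = 0.253) for TAC in WT, where Ackr4 was called without KO sham replicate 1 (edgeR adjusted p = 0.0245). For KO against WT after sham they were Ackr4 (1.13 ± 0.41, edgeR adjusted p = 0.309) and Ackr2 (0.93 ± 0.38, edgeR adjusted p = 0.338). Ackr2 and Ackr4 are scavenging receptors that take up CC chemokines without signalling through G proteins. For the difference of TAC effects they were Ackr4 (−1.25 ± 0.57, edgeR adjusted p = 0.538) and Cx3cr1 (−1.22 ± 0.58, edgeR adjusted p = 0.553).

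Of 27 other chemokine genes 12 were tested, and with all libraries edgeR called 0 of them in each of the 5 comparisons. Of all tested genes 20.4% were called for KO against WT after TAC and at most 0.0316% in each other comparison. With KO sham replicate 1 left out edgeR tested 14 of these chemokine genes. It then called 7 higher and 1 lower for TAC in KO, against 47.6% of all genes, 3 higher for TAC in WT, against 6.53%, and 2 higher for KO against WT after TAC, against 40.7%. For the difference of TAC effects it called 1 higher and 1 lower, against 12.1% of all genes, and 0 for KO against WT after sham. With all libraries their median log2 fold change was 0.23 for TAC in WT, 0.43 for TAC in KO and 0.02 for KO against WT after sham. It was 0.03 for KO against WT after TAC and 0.35 for the difference of TAC effects. Over all tested genes the medians were 0.01, −0.02, 0.01, −0.02 and −0.07 in that order. Ccl9 came nearest to a call for TAC in WT hearts, at 15.5, 18.3 and 20.5 CPM in WT TAC against 6.72, 5.81 and 6.61 CPM in WT sham hearts. The groups did not overlap, with a log2 fold change of 1.51 ± 0.24 (edgeR adjusted p = 0.0548). Ccl6, which like Ccl9 is read by CCR1, followed with 1.05 ± 0.30 (edgeR adjusted p = 0.179). Both were called without KO sham replicate 1, Ccl9 at 1.50 (edgeR adjusted p = 0.00263) and Ccl6 at 1.04 (edgeR adjusted p = 0.0184). For TAC in KO hearts the smallest p were those of Ccl12, a CCR2 ligand (1.63 ± 0.51, edgeR adjusted p = 0.103), and Ccl21a, a CCR7 ligand (0.96 ± 0.32, edgeR adjusted p = 0.105). The fit without KO sham replicate 1 called both, Ccl12 at 2.01 (edgeR adjusted p = 0.0103) and Ccl21a at 1.26 (edgeR adjusted p = 0.00477).

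Ccl11, the eotaxin that shares CCR3 with Ccl24, had the smallest p of the other chemokines for KO against WT after sham. It was at 1.23, 0.657 and 0.562 CPM in KO sham and 3.39, 2.86 and 3.43 CPM in WT sham hearts, without overlap, and at −2.01 ± 0.47 as a log2 fold change (edgeR adjusted p = 0.220). Ccl9 came next there (0.95 ± 0.24, edgeR adjusted p = 0.243). Ccl24 overlapped between the same 2 groups. For KO against WT after TAC the smallest p belonged to Pf4, the platelet chemokine (0.45 ± 0.15, edgeR adjusted p = 0.0572), and Ccl21a (0.86 ± 0.31, edgeR adjusted p = 0.0662), and both were called without KO sham replicate 1 (edgeR adjusted p = 0.0323 for Pf4 and 0.0194 for Ccl21a). For the difference of TAC effects it was Ccl9 (−1.20 ± 0.34, edgeR adjusted p = 0.411) and Ccl11 (2.07 ± 0.65, edgeR adjusted p = 0.449), which without KO sham replicate 1 were at −0.95 for Ccl9 (edgeR adjusted p = 0.04999) and 2.44 for Ccl11 (edgeR adjusted p = 0.0311), both called.

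Of 8 proteases that cut or release chemokines 7 were tested, and with all libraries 0 were called by edgeR in the 5 comparisons. Of all tested genes 20.4% were called for KO against WT after TAC and at most 0.0316% in each other comparison. Without KO sham replicate 1 edgeR called 2 proteases higher and 2 lower for TAC in KO, against 47.6% of all genes. It called 2 higher and 1 lower for KO against WT after TAC, against 40.7%. For the difference of TAC effects it called 2 higher and 1 lower, against 12.1%. It called 1 lower for TAC in WT, against 6.53%, and 0 for KO against WT after sham, against 0.241%. With all libraries the median log2 fold change of the proteases was −0.30 for TAC in WT and −0.18 for TAC in KO. It was 0.15 for KO against WT after sham, 0.13 for KO against WT after TAC and 0.02 for the difference of TAC effects. Over all tested genes the medians were 0.01, −0.02, 0.01, −0.02 and −0.07 in the same order. Mmp9, a gelatinase that trims several chemokines, was at 1.10, 1.17 and 1.44 CPM in KO TAC hearts, 0.295, 0.699 and 0.490 CPM in WT TAC hearts, 1.02, 0.370 and 0.375 CPM in KO sham hearts and 1.22, 1.82 and 1.19 CPM in WT sham hearts. As with Ccl24, WT TAC lay below WT sham and KO TAC above KO sham in every library. In KO hearts the Mmp9 gap was narrow, from 1.02 CPM in KO sham replicate 1 to 1.10 CPM in the lowest KO TAC library. The log2 fold changes of Mmp9 were −1.51 ± 0.44 for TAC in WT (edgeR adjusted p = 0.182), 1.32 ± 0.45 for KO against WT after TAC (edgeR adjusted p = 0.0557) and 2.64 ± 0.63 for the difference of TAC effects (edgeR adjusted p = 0.300), the last 3.23 without KO sham replicate 1 (edgeR adjusted p = 0.00583). The other 2 were called without that library as well, at an edgeR adjusted p of 0.0296 for TAC in WT and 0.0123 for KO against WT after TAC.

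Dpp4, the dipeptidyl peptidase that trims CXCL12, gave 1.17 ± 0.43 for KO against WT after TAC (edgeR adjusted p = 0.0693, and 0.00320 without KO sham replicate 1) and −0.81 ± 0.43 for TAC in WT (edgeR adjusted p = 0.361). For TAC in KO hearts the smallest p were those of the metalloproteases Mmp14 (−1.11 ± 0.19, edgeR adjusted p = 0.103) and Mmp2 (−0.78 ± 0.26, edgeR adjusted p = 0.105). Leaving out KO sham replicate 1 gave calls for both, Mmp14 at −1.23 (edgeR adjusted p = 0.000416) and Mmp2 at −0.99 (edgeR adjusted p = 0.00388). For KO against WT after sham they were Mmp12 (−1.57 ± 0.49, edgeR adjusted p = 0.276) and Mmp9 (−1.32 ± 0.43, edgeR adjusted p = 0.284). With all libraries Mmp14 was second to Mmp9 for the difference of TAC effects (−0.78 ± 0.26, edgeR adjusted p = 0.475, and 0.0378 without KO sham replicate 1). Without that library Dpp4 came ahead of Mmp14 there, at 2.00 (edgeR adjusted p = 0.00822), where 12.1% of all genes were called. In the same fit Dpp4 was called for TAC in KO at 1.19 (edgeR adjusted p = 0.00427), against 47.6% of all genes.

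Some markers of other cell types also differed in KO against WT hearts after TAC, where 20.4% of all tested genes were called, and their part in the chemokine results was not tested. Shares of a list near that background say nothing of the list. In these bulk samples fewer cells of a type and less RNA per cell cannot be told apart. Beside Cxcl13, all 7 tested B cell markers were above 0, with a median log2 fold change of 0.81, and 2 of them rose, among them Pax5, a transcription factor of the lineage (1.97, edgeR adjusted p = 0.0287). The summed level of the 8 listed was 12.2 to 17.5 CPM in KO TAC, 5.66 to 9.84 in WT TAC, 10.9 to 17.5 in KO sham and 7.36 to 10.2 in WT sham hearts. KO TAC and KO sham overlapped in B cell markers only through KO sham replicate 1, at 17.5 CPM. KO sham replicates 2 and 3, at 11.7 and 10.9 CPM, lay below every KO TAC library. For Cxcl13 all KO sham libraries lay below KO TAC, replicate 1 among them. Cd79a, a part of the B cell receptor, was at 0.827, 0.939 and 0.721 CPM in KO TAC and 0.541, 0.430 and 0.653 CPM in WT TAC hearts, without overlap and not called, on 8 to 12 raw counts a library.

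Beside Ccl24, the eosinophil list was near 0, with a summed level of 0.0656 to 0.391 CPM in KO TAC, 0.0492 to 0.109 in WT TAC, 0 to 0.341 in KO sham and 0.0454 to 0.159 in WT sham hearts. None of its 6 genes was tested, Ear1 had no count in any library, and Epx had 1 count in all. All 5 tested mast cell markers rose in KO TAC against WT TAC, at a summed 24.3 to 28.6 CPM in KO TAC, 4.25 to 13.9 in WT TAC, 12.98 to 24.4 in KO sham and 9.05 to 11.3 in WT sham hearts. All 4 tested adipocyte markers rose, at 8.92 to 10.5 CPM in KO TAC, 0.147 to 0.806 in WT TAC, 2.11 to 6.82 in KO sham and 0.795 to 4.99 in WT sham hearts. Of 6 mesothelial markers Wt1 rose, with the list at 27.4 to 39.9 CPM in KO TAC, 4.84 to 7.67 in WT TAC, 7.23 to 74.2 in KO sham and 6.07 to 23.0 in WT sham hearts. KO sham replicate 1 had the highest KO sham level of the B cell, mast cell, adipocyte and mesothelial lists.

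**Figure D5:**
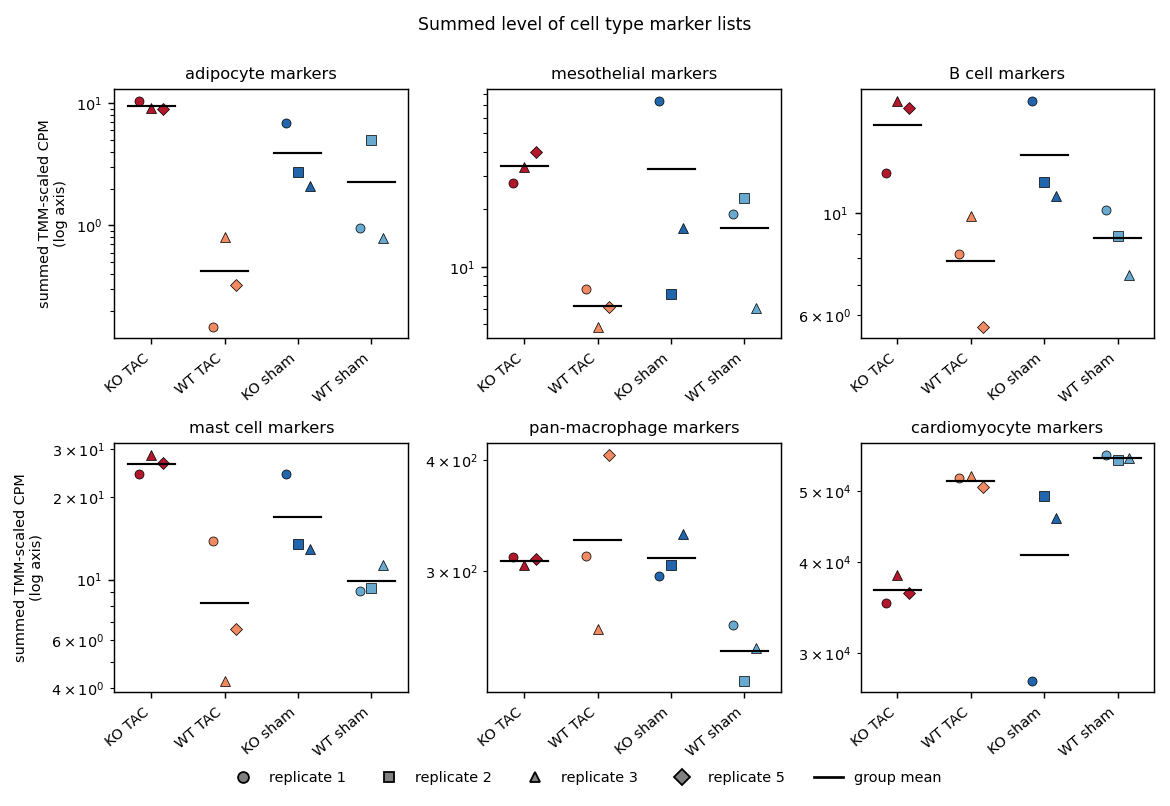
Summed level of 6 marker lists in TMM-scaled CPM (log axes) for the 12 hearts, with points for libraries and bars for the mean of 3. Adipocyte markers are at 8.92 to 10.5 CPM in KO TAC and 0.147 to 0.806 CPM in WT TAC hearts, and cardiomyocyte markers are lowest in KO sham replicate 1.

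Of the macrophage lists, 1 of 12 pan-macrophage markers fell in KO TAC against WT TAC, Cd68 (−0.52, edgeR adjusted p = 0.0485), at a summed 305 to 311 CPM in KO TAC, 259 to 405 in WT TAC, 296 to 330 in KO sham and 226 to 261 in WT sham hearts. Of 8 resident macrophage markers 2 rose, Timd4 (1.34, edgeR adjusted p = 0.0176) and Lyve1 (0.64, edgeR adjusted p = 0.0372), and Cd163 itself fell. Monocyte markers, of which 0 of 3 tested were called, summed to 27.6 to 31.4 CPM in KO TAC, 27.3 to 30.4 in WT TAC, 23.8 to 42.5 in KO sham and 12.4 to 19.5 in WT sham hearts. None of 6 tested T cell markers was called, at 2.69 to 10.3 CPM in KO TAC, 1.29 to 4.87 in WT TAC, 1.73 to 8.26 in KO sham and 1.29 to 1.75 in WT sham hearts. Heart muscle markers, which identify the tissue, fell for Actc1, Ryr2 and Pln among 8 tested, and the list summed to 35134 to 38353 CPM in KO TAC, 50645 to 52326 in WT TAC, 27500 to 49189 in KO sham and 55126 to 56017 in WT sham hearts. Beside Cxcl14 and Cxcl12, 2 of 8 fibroblast markers rose, Dcn and Pdgfrl, with 4 above and 4 below 0 and a median of 0.03 on the log2 scale, 0 of 8 endothelial markers were called, and 1 of 8 smooth muscle and pericyte markers, Rgs5, fell. Of the other lists Zbtb46 was the 1 of 5 tested dendritic cell markers that rose, and 0 of 3 neutrophil markers and 0 of 1 thymus and lymph node markers were called. No NK cell marker was tested, with a summed level of 0.483 to 1.25 CPM in KO TAC and 0.430 to 1.38 in WT TAC hearts.

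The genes whose pattern over the 12 libraries lay closest to that of a called chemokine were taken by the root mean square difference of their centred log2 CPM. For Cxcl13 they were Eva1c (0.73), Olfr1372-ps1 (0.76) and Vsig4 (0.77), against a root mean square of 1.46 for Cxcl13 about its own mean. Vsig4, a complement receptor of resident macrophages, averaged 3.61 ± 1.48 CPM in KO TAC and 1.32 ± 0.234 CPM in WT TAC hearts and was not called (1.46 ± 0.49, edgeR adjusted p = 0.0546). For Ccl24 they were Maml2 (0.19), Ttf1 (0.20) and Txlng (0.20), against 0.47 for Ccl24. For Cxcl14 they were Plau (0.19), Myh14 (0.19) and Gpatch11 (0.21), against 0.44. Plau, the urokinase protease, averaged 2.76 ± 0.187 CPM in KO TAC, 4.72 ± 0.945 in WT TAC and 5.10 ± 0.937 in WT sham hearts. These are descriptions over 12 libraries that share depth and scaling.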

How the data were processed

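The authors deposited raw, whole-number read counts per gene in 1 table for the 12 samples, with HISAT2 as the aligner per the submitters' processing notes and, per the labels' protocols, oligo(dT)-selected RNA read as 150 bp pairs. The sources used here do not give the counting program, build, annotation or strand use. Symbols were matched for 52081 of 55357 identifiers. The main test was the quasi-likelihood test of edgeR 4.0.16 (R 4.3.3) on these counts, with TMM scaling, the filterByExpr minimum, 1 robust fit of the 12 libraries with 4 group coefficients, which leaves 8 residual degrees of freedom, and p-values adjusted by Benjamini-Hochberg over 15804 genes at 0.05, with SE taken as the fold change over the square root of F. Levels are TMM-scaled CPM, and likeness used log2 CPM with a prior count of 2 among genes averaging 1 CPM. Alternatives used DESeq2 1.42.0 and limma 3.58.1. The procedure was tested on simulated data. No pair of replicates within a group agreed within counting noise, the closest differing by 8.29 times the Poisson variance. Pairs of libraries from different groups were not compared in this way. The genes, the marker lists and the alternatives were chosen with earlier results of these data known. Chemokine genes were given with a fold change, SE and adjusted p where the unadjusted p was under 0.05, with others added. From the lists of other chemokines, receptors and proteases, called genes or otherwise the 2 with the smallest p were named. Markers, library values and further genes were named after their values were seen. Some genes of the lists are not reported here.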

Additional observations from a re-analysis of the deposited data

Results flagged for a closer look

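Ccl24 went opposite ways with TAC in the 2 genotypes. Every KO TAC library lay above every KO sham library, and every WT TAC library lay below every WT sham library. Of all genes 11.6% lay higher without overlap in KO hearts and 13.7% lower in WT hearts, and the share with both was not counted. With all libraries neither TAC effect was called (edgeR adjusted p = 0.112 in KO and 0.302 in WT hearts). The closest libraries for Ccl24 were at 1.97 against 1.81 CPM in KO hearts and at 1.13 against 1.45 CPM in WT hearts. The difference between the TAC effects, KO minus WT, was 1.33 on the log2 scale, and the test of that difference did not pass (edgeR adjusted p = 0.409).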

How the results depend on the processing

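With all 12 libraries edgeR called 0, 0, 0, 3 and 0 of the 10 chemokine genes for 5 comparisons, in this order: TAC in WT, TAC in KO, genotype after sham, genotype after TAC (KO against WT in both), and the difference of TAC effects. DESeq2 called 1 for the difference. limma-voom called 1, 7, 1, 5 and 3 in that order of comparisons, against 6.52, 63.2, 14.9, 48.4 and 32% of all genes. Without the low-count filter 1 was called for TAC in KO. With KO sham replicate 1 and WT TAC replicate 1 both left out, 6 were called for TAC in KO, against 55.5% of all genes. In that setting 6 were called for KO against WT after TAC, against 53.8%, and 3 for the difference, against 36.1%. Leaving out 1 library at a time gave 0 to 0, 0 to 5, 0 to 0, 0 to 5 and 0 to 2. The count for KO against WT after TAC was 0 without WT TAC replicate 3, KO TAC replicate 1 or KO TAC replicate 3. The shares of all genes there were 0.523, 0.357 and 0.265%. The count was 5 without KO sham replicate 1, where 40.7% of all genes were called. Ccl2 for TAC in WT reversed to −0.22 without WT TAC replicate 3, and leaving out 1 library at a time gave it −0.22 to 2.17. Over 14 named fold changes, 266 alternative values kept direction and call, 23 became calls, 12 lost a call and 1 reversed, and the causes were not tested. Over all genes KO against WT after TAC gave 3219 calls by edgeR, 4770 by DESeq2, 7648 by limma-voom and 43 to 6585 with 1 library left out. Library totals moved the median of all genes by 0.15, −0.17, 0.11, −0.22 and −0.33 on the log2 scale, relative to TMM. With a replicate block the counts were 0, 0, 0, 3 and 0, so the block changed no count of chemokine calls, and the all-gene count after TAC was 2411. For same-numbered libraries, deviations from the group mean, not the levels themselves, correlated from −0.194 to 0.618 over 14 pairs. In these deviations 1 of 12 libraries correlated best with its own number among libraries of the other genotype after the same surgery. The pair at 0.618, WT TAC replicate 1 and KO sham replicate 1, crossed surgeries and lay outside that count. The numbers were not taken to pair samples. A fit of only the compared groups was not run for the difference. Cxcl13, Ccl5, Cxcr5 and Cxcr6 rest on few counts, and Ccl24 on 19 to 44 reads a library.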

Other observations

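WT TAC replicate 3 stood out for few genes. By a rule chosen after the values were seen, at least 3-fold above each of the other 11 libraries and at least 1 CPM, 4 genes of 15804 qualified in it. They were Ccl2 (3.58-fold over the next library), Ccl7 (3.28-fold), the transcript 1700047I17Rik2 (3.31-fold) and Lcn2, lipocalin 2 (3.03-fold). Lcn2 was at 22.6 CPM there and at most 7.46 CPM elsewhere. The other libraries held 0 to 4 such genes each. Ccl2 and Ccl7 were also each other's closest pattern over the 12 libraries, with a root mean square difference of 0.38 in centred log2 CPM.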
